A study of Heterocephalus glaber with 215 samples.

Results

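The kidney was examined as 24 of the 215 RNA-seq libraries of naked mole-rats, a long-lived eusocial rodent of which most colony members do not breed. Kidney libraries were taken from the tissue named in the sample labels, with 1 library from each of 24 animals. They were set against 189 libraries of 9 other tissues, namely skin, heart, cerebellum, hypothalamus, pituitary, thyroid, adrenal, ovary and testis. The cerebellum library of animal BM_5982 and the ovary library of animal BF_1816 were left out, as in the study. The animals fell into 4 classes of 6, female breeders (BF), female non-breeders (NF), male breeders (BM) and male non-breeders (NM), aged 2.4 to 4.1 years. All were untreated animals of 1 species with no engineered allele. Breeders had been taken from their natal colony and paired with an unrelated mate, whereas non-breeders were littermates that stayed behind, so breeding status and removal from the colony cannot be told apart. Among breeders, females and males were sampled at different times after a birth, so sex and time of sampling cannot be told apart there.

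The kidney filters blood in glomeruli, whose podocytes hold back protein, and then recovers most of the filtrate along the tubule. The proximal tubule takes up phosphate, glucose, amino acids and organic anions and also makes glucose and ammonia. The thick ascending limb, the distal convoluted tubule and the collecting duct then adjust salt, calcium, acid and water under hormonal control, and the medulla holds the osmolytes and urea used in concentrating urine. Gene lists for these segments and functions were compiled from general knowledge of mammalian kidney, and roles given below are known mostly from human, mouse or rat.

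Kidney libraries held 11090806 to 17510547 counts, within the range of 9553515 to 20099804 over all libraries. Levels are given as counts per megaread of the scaled library (CPM), as mean ± SD over 24 kidneys unless stated. Since gene lengths were not used, levels are compared between tissues for a gene and not between genes. In whole tissue, fewer cells of a type and less RNA per cell cannot be told apart. The kidneys of BF_4772 and NM_0713 had the lowest median correlations with the other kidneys (0.969 and 0.976, against up to 0.989), and counts were recomputed without them. Those of BF_1816 (0.977) and NF_0525 (0.979) were next, close to NM_0713, and were kept in that recomputation. No pair of kidney libraries was identical, and the smallest chi-square per degree of freedom over 276 pairs was 10.2.

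The tissue label was checked first with UMOD, SLC12A1 and AQP2. UMOD, which encodes uromodulin, the most abundant protein of normal urine, had a lowest, median and highest level of 11088, 21886 and 32608 CPM over the kidneys. In no library of another tissue was it above 31 CPM, a thyroid library of BF_1816. SLC12A1, the loop-diuretic-sensitive sodium-potassium-chloride cotransporter of the thick ascending limb, ranged from 1169 to 4151 CPM with a median of 2658 CPM. The same thyroid library held the highest level outside kidney, 7.93 CPM. AQP2, the vasopressin-regulated water channel of collecting duct principal cells, ranged from 901 to 4727 CPM with a median of 1929.7 CPM and reached 17.5 CPM in a thyroid library. For each of these 3 genes the kidneys lay above all libraries of the other 9 tissues with no overlap.

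Against the mean of the 9 tissue means, the log2 difference in the edgeR quasi-likelihood fit was 15.86 ± 0.26 (SE) for UMOD (adjusted p = 3.15e-130), 12.99 ± 0.18 for SLC12A1 (adjusted p = 2.47e-148) and 12.35 ± 0.14 for AQP2 (adjusted p = 1.71e-160). The tissue with the next highest mean was testis for UMOD (9.84 ± 3.72 CPM, n = 12) and thyroid for AQP2 (6.25 ± 4.85 CPM, n = 24). Kidney means were 2198 and 337 times these values. All 24 kidney libraries thus carried the defining markers of the labelled tissue.

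**Figure D1:**
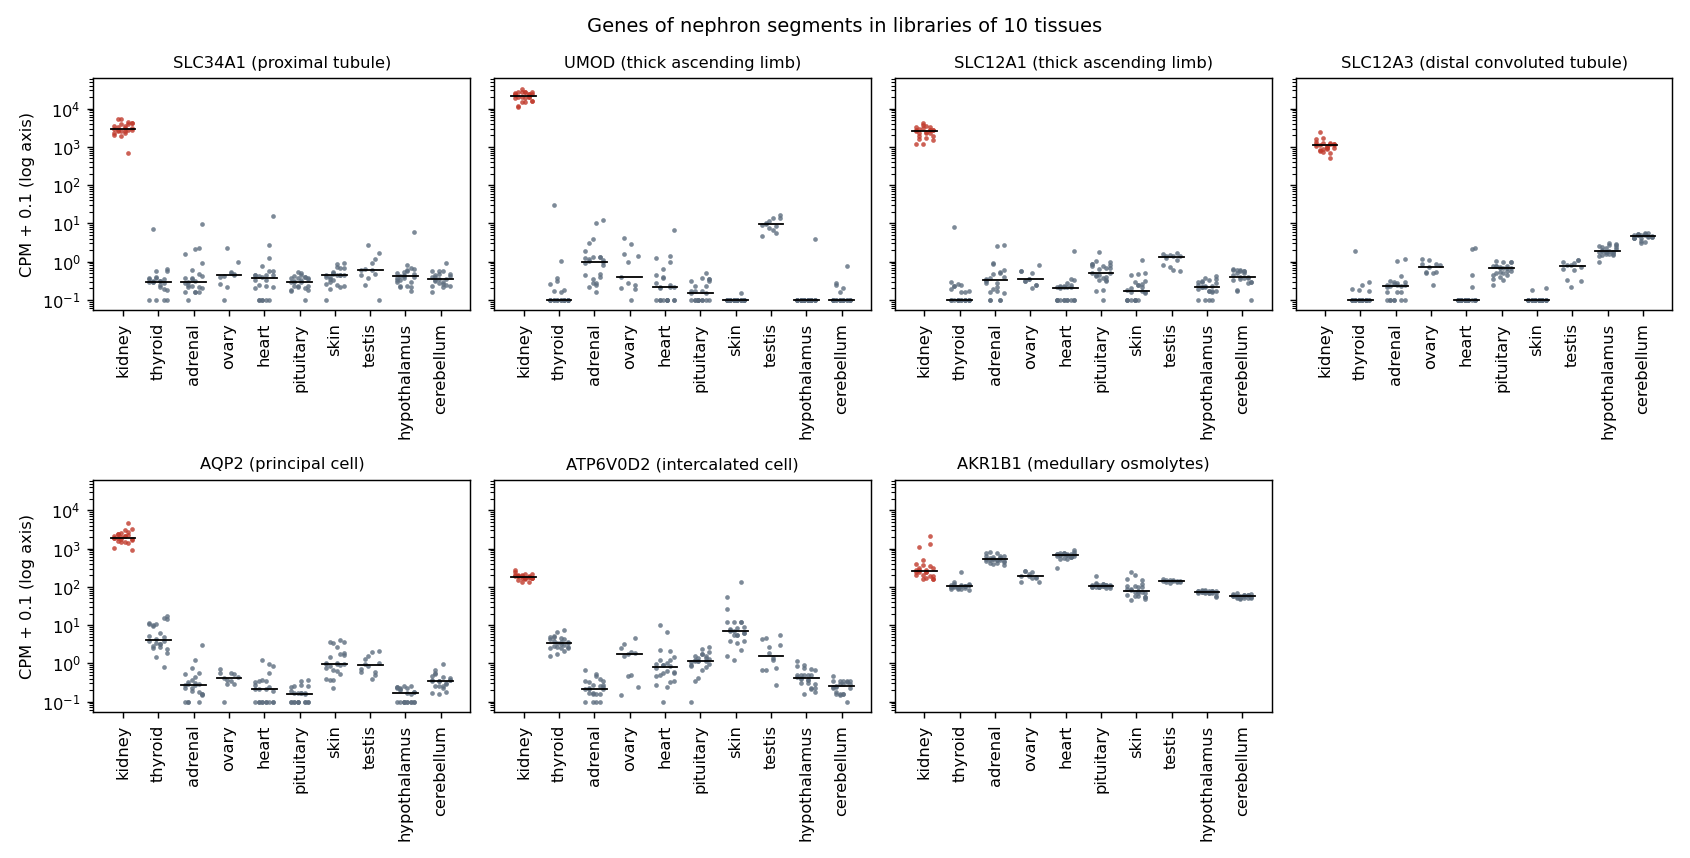
Level of 7 genes of nephron segments in kidney and other tissue libraries, as CPM + 0.1 on a log axis, with a point for each library and a line at the tissue median. Kidney (red) lies above the libraries of all other tissues for SLC34A1, UMOD, SLC12A1, SLC12A3 and AQP2, whereas AKR1B1 has a higher mean in heart (673 CPM) than in kidney (419.8 CPM).

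Kidney was then compared with the other tissues over 15641 tested genes. A gene was called higher or lower where the adjusted p was below 0.01 and the log2 difference from the mean of tissue means was beyond 2, the thresholds the study used between species. On this rule 1266 genes were higher in kidney, 8.09% of those tested, and 1100 genes were lower, 7.03%. With no threshold on the difference, 12461 genes (79.7%) had an adjusted p below 0.01. Genes above each of the 9 tissues by more than 2 on the log2 scale, here called kidney-enriched, numbered 357 (2.28%). Genes below each tissue by as much, called kidney-depleted, numbered 26 (0.166%). Of the kidney-enriched genes, 269 had every kidney library above every library of another tissue, and 88 overlapped. Over all tested genes, 345 (2.21%) were separated in this way.

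The remaining 909 genes called higher were not above each tissue by the threshold, and 441 of them had a higher mean in some other tissue than in kidney. Skin was that tissue for 108 genes and thyroid for 101. Kidney-enriched genes took a median of 13.5% of the counts of a kidney library (8.56% to 15.0%), against 0.353% in libraries of other tissues (0.141% to 0.582%). Because these genes were chosen as higher in the same kidney libraries, this gap follows from the choice and is a description only. BF_4772 had the lowest share among kidneys. Fitted separately, the classes gave 391 kidney-enriched genes in BF, 330 in NF, 383 in BM and 373 in NM, of which 280 were shared by all 4 classes and by the fit of all animals. Without BF_4772 and NM_0713 there were 1271 genes higher, 1143 lower, 366 enriched and 29 depleted.

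Taken tissue by tissue, thyroid differed from kidney in the fewest genes (1499 higher and 1023 lower in kidney) and cerebellum in the most (2373 and 2257). Adrenal followed thyroid with 1860 and 1047 genes, and ovary with 1502 and 1575. Pearson's r of the tissue means of log2 CPM with kidney was 0.850 across genes for thyroid and 0.675 for cerebellum, where genes are not independent replicates. The next highest tissue of a kidney-enriched gene was thyroid for 55 genes, testis for 54, heart for 44, skin for 42 and pituitary for 25. PAX8, a transcription factor of both thyroid and kidney development, was at 248 CPM in kidney and 1234 CPM in thyroid.

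**Figure D2:**
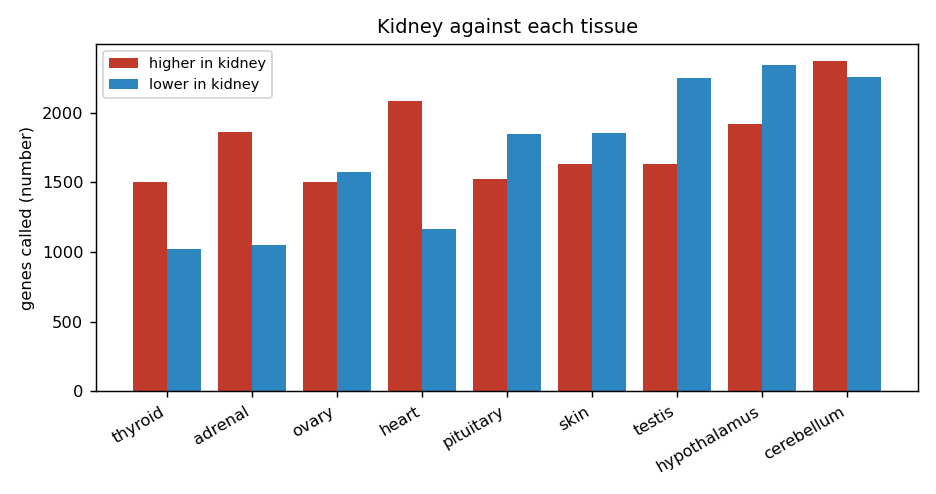
Number of genes called higher (red) or lower (blue) in kidney than in each other tissue, with adjusted p below 0.01 and a log2 difference beyond 2. Tissues are ordered as in the plot of segment genes, and the fewest genes differ from thyroid (1499 and 1023) and the most from cerebellum (2373 and 2257).

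**Figure D3:**
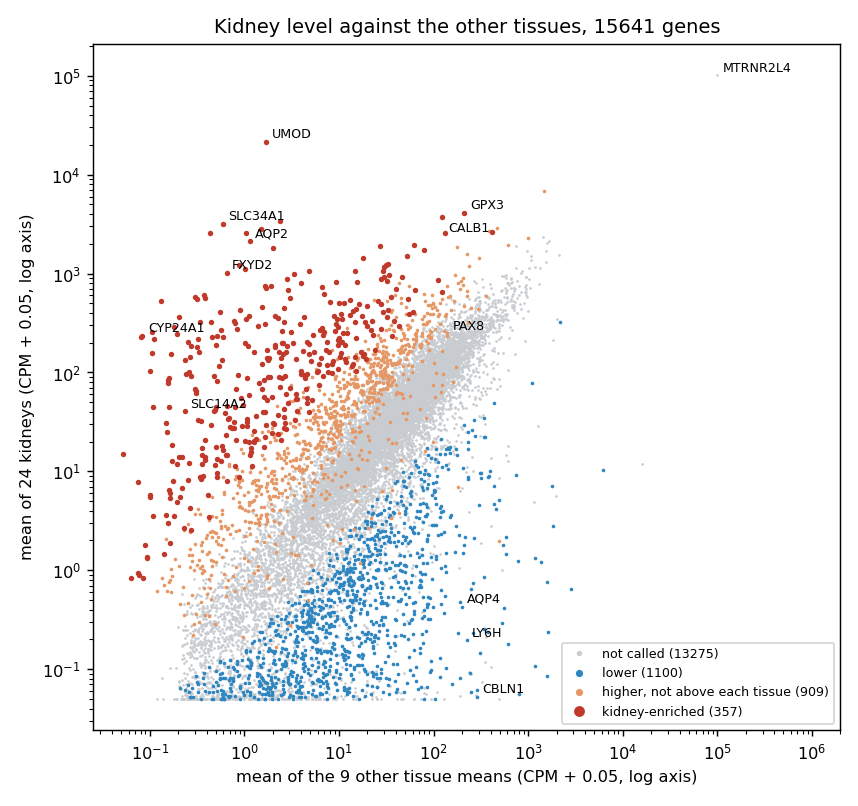
Mean level over 24 kidneys against the mean of the 9 other tissue means, both as CPM + 0.05 on log axes, with a point for each of 15641 tested genes. Colours give kidney-enriched genes (357), other genes called higher (909), genes called lower (1100) and genes not called, and UMOD lies at 21640.1 CPM in kidney and 1.65 CPM elsewhere.

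The kidney-enriched genes with the largest differences and at least 10 CPM in kidney came from several segments. After UMOD the largest log2 difference was that of TMEM174 (13.63 ± 0.14), a membrane protein of the proximal tubule that binds the phosphate transporter in mouse. It ranged from 106 to 734 CPM in kidney and did not exceed 1.51 CPM elsewhere, with no reads at all in 2 tissues. CYP24A1, the enzyme that inactivates vitamin D hormone, followed SLC12A1 at 12.95 ± 0.18 and varied widely between kidneys, as described further on. TMEM52B, for which no role is given here, was 2571 times as high in kidney (230.4 ± 67.7 CPM) as in the next tissue, skin. CDH16, the kidney-specific cadherin of tubular epithelium, had 1808 ± 209 CPM, and thyroid was next with 9.54 CPM.

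Several of these leading genes were solute carriers of the proximal tubule. SLC34A1, the main sodium-phosphate cotransporter of its brush border, had a median of 2998 CPM and ranged from 699.6 to 5367 CPM, against 0.998 CPM in heart. SLC5A12, a lactate transporter, had 255 ± 81.9 CPM, and SLC13A2, which recovers citrate, 547 ± 201 CPM. SLC17A3 (244 ± 72.1 CPM) and SLC22A13 (156 ± 63 CPM) carry urate and other organic anions. SLC7A13, an amino acid transporter of the late proximal tubule in mouse, had 1229 ± 478 CPM and was at 5.08 CPM in heart. In the kidney of BF_4772 SLC34A1 was at its lowest, and the next lowest kidney had 1980.0 CPM.

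Others were enzymes, pump subunits and membrane proteins. MIOX, which opens the ring of inositol, had 2543 ± 1053 CPM in kidney and 2.44 CPM in cerebellum. BAAT, which joins bile acids to glycine or taurine in liver, had 2829 ± 716 CPM in kidney and 6.41 CPM in thyroid. FXYD2, the gamma subunit of the sodium pump, had 1015 ± 182 CPM, and PKHD1, the gene of recessive polycystic kidney disease, 362 ± 80 CPM. DEFB1, an antimicrobial peptide of the distal nephron, ranged from 427 to 1175 CPM, and LRRC19, a leucine-rich repeat receptor, from 33.1 to 310.5 CPM. All 20 genes in this group had every kidney above every library of another tissue, a separation that the choice of the largest differences favours.

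Over all kidney lists together, 199 genes were tested, of which 154 were called higher, 3 lower and 42 neither, and 89 were kidney-enriched. Their median log2 difference was 5.29, against -0.08 over all tested genes. On log2 CPM with a prior count of 2 it was 5.02. Fitted differences of genes with no reads in some tissue (9 of these) depend on the prior count, so levels stand beside them. The lists were chosen for kidney and with earlier results of these data known, so the counts describe them and are not independent evidence of their direction.

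**Figure D4:**
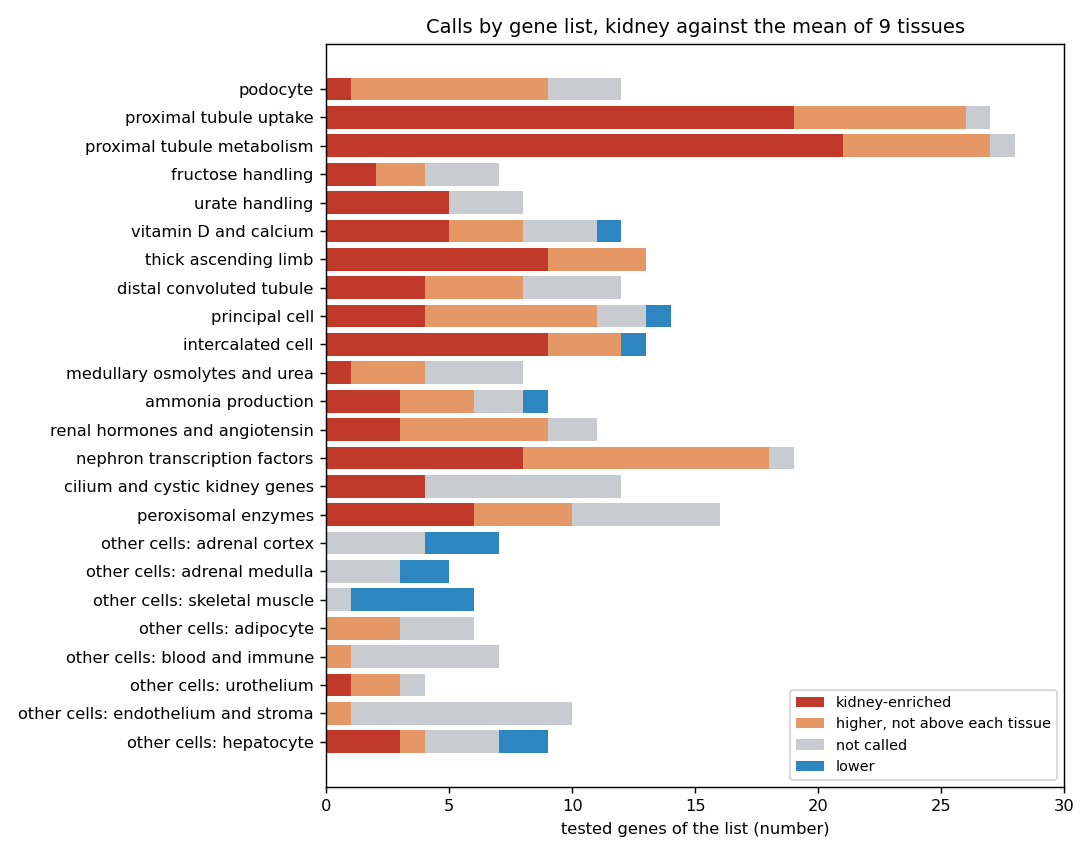
Number of tested genes in each list that were kidney-enriched, higher without being above each tissue, not called, or lower in kidney against the mean of 9 tissue means. All 13 tested genes of the thick ascending limb list are higher, whereas 1 of 12 podocyte genes is kidney-enriched, and lists of cells from outside the nephron stand at the bottom.

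Podocyte genes were mostly higher in kidney but shared with other tissues. Of 12 tested, 9 were called higher, and 1 was kidney-enriched (median log2 3.19). NPHS1, nephrin of the slit diaphragm, had 98 ± 40.7 CPM in kidney and 96.8 ± 60 CPM in testis, so the levels overlapped. WT1, a transcription factor of podocytes and of the gonads, was lower in kidney (40.7 CPM) than in testis (82.7 CPM), and PTPRO, a podocyte phosphatase, lower than in pituitary (99.5 and 173 CPM). CLIC5, a chloride channel relative at the podocyte foot process, had 551 ± 160.4 CPM in kidney and 906 CPM in heart. SYNPO, KIRREL and DDN were not called, with log2 differences of 1.17, -0.06 and 1.74.

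Uptake genes of the proximal tubule were called higher for 26 of 27 tested, and 19 were kidney-enriched (median log2 6.62). LRP2, megalin, which takes up filtered protein, had 1924 ± 557 CPM, and thyroid, where megalin is also made, 405 CPM. CUBN, its partner cubilin, had 960.1 ± 292 CPM against 67.2 CPM in adrenal. For the organic anion transporters SLC22A6 and SLC22A8 the kidney levels were 449 ± 146 and 710.3 ± 250.3 CPM, and hypothalamus was next with 13.9 and 11.2 CPM. SLC13A3, a dicarboxylate transporter, had 1431 ± 359 CPM, and AQP1, the water channel of proximal tubule and thin limb, 2719 ± 466 CPM with 1332 CPM in thyroid.

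Glucose carriers differed among themselves. SLC5A2, the high-capacity sodium-glucose cotransporter targeted by gliflozin drugs, had 372 ± 120.4 CPM in kidney and 314 ± 38.3 CPM in hypothalamus, so it was called higher against the mean of tissues (log2 2.11 ± 0.04) without being kidney-enriched. SLC5A1, its high-affinity relative, had 23.4 ± 8.75 CPM in kidney and more in skin (38.5 CPM). SLC2A2, the basolateral exit route for glucose, had 25.2 ± 12 CPM and was at or below 0.331 CPM on average in every other tissue. SLC7A8 was the uptake gene that was not called, with 47.7 CPM in kidney and 299.8 CPM in adrenal.

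Metabolic enzymes of the proximal tubule gave 27 higher of 28 tested and 21 kidney-enriched (median log2 7.08). Among genes of glucose synthesis, PCK1 had 1885 ± 978 CPM (range 414 to 4077), G6PC 286 ± 206 CPM (range 28.3 to 749) and FBP1 506 ± 174 CPM. FBP1 reached 165 CPM in adrenal and was not kidney-enriched. GATM, which makes the precursor of creatine, had 1264 ± 782 CPM and spanned 152 to 3072 CPM, and DAO, which oxidises D-amino acids, had 1072 ± 275 CPM with cerebellum next at 37 CPM. FAH, of tyrosine breakdown, was the gene that was not called (log2 1.78 ± 0.05), with 186 CPM in kidney and 117 CPM in thyroid.

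Fructose use and urate transport overlap with these lists. Of 7 tested fructose genes 4 were higher and 2 kidney-enriched. KHK, ketohexokinase, which starts fructose breakdown, had 366 ± 88 CPM in kidney and 151 CPM in thyroid. SLC2A5, the fructose carrier, was not called, with 50.4 CPM in kidney and 101 CPM in heart. Of 8 tested urate genes 5 were higher, and all 5 were kidney-enriched. SLC22A12, the reabsorbing urate exchanger, had 96.1 ± 35 CPM and did not exceed 1.56 CPM elsewhere, and SLC22A11, a further organic anion carrier, had 324 ± 87.7 CPM. PDZK1, a scaffold for such carriers, had 1053 ± 297 CPM. XDH, which makes urate, was not called, with 94 CPM in kidney and 276 CPM in adrenal, nor was the urate carrier SLC2A9, with 22 and, in thyroid, 97.1 CPM. ABCG2, an exporter of urate, had 53.5 CPM in kidney and 34.7 CPM in heart and was not called.

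Thick ascending limb genes were called higher for all 13 tested, with 9 kidney-enriched and a median log2 of 8.44. Beside UMOD and SLC12A1 these included KCNJ1, the potassium channel ROMK, with 310.2 ± 87.5 CPM, and the paracellular claudins CLDN10 (191 ± 23.4 CPM), CLDN16 (120.4 ± 25.9 CPM) and CLDN19 (199.7 ± 51.9 CPM). EGF, a growth factor of the distal nephron, had 823 ± 227 CPM against 42.7 CPM in skin. BSND, barttin, a chloride channel subunit, had 45.1 ± 6.98 CPM and at most 1.28 CPM in any other library. KNG1, the precursor of kinins, was higher in ovary (47.5 CPM) than in kidney (12.4 ± 4.23 CPM).

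In the distal convoluted tubule list 8 of 12 tested genes were higher and 4 kidney-enriched. SLC12A3, the thiazide-sensitive sodium-chloride cotransporter, ranged from 509 to 2505 CPM with a median of 1091 CPM, and cerebellum was next with 4.48 CPM. WNK4, a kinase that regulates it, had 703 ± 185 CPM. TRPM6, the magnesium channel, had 158 ± 30.8 CPM in kidney but 340.3 CPM in thyroid. PVALB, parvalbumin, which marks the early part of this segment in mouse, was not called (log2 0.75 ± 0.30), with 8.95 ± 5.6 CPM in kidney and 273 CPM in cerebellum. CALB1, calbindin of calcium-transporting tubule cells and Purkinje neurons, had 3699 ± 1397 CPM in kidney and 717 CPM in cerebellum.

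Other calcium and vitamin D genes were uneven. PTH1R, the receptor for parathyroid hormone, had 736 ± 183 CPM in kidney and 14.7 CPM in testis, and KL, klotho, the coreceptor for the phosphate hormone FGF23, had 492 ± 125 CPM. FGFR1, a receptor that pairs with klotho, was called lower (log2 -2.71 ± 0.09), with 32.9 CPM in kidney and 698 CPM in cerebellum. TRPV6, an epithelial calcium channel, had 1.62 ± 0.429 CPM in kidney and 50.6 CPM in skin and was not called, and TRPV5 did not pass the filter on low counts. VDR, the vitamin D receptor, was called higher, with 123 ± 32 CPM.

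Principal cell genes of the collecting duct were called higher for 11 of 14 tested, with 4 kidney-enriched, and 1 was lower. HSD11B2, which keeps cortisol from the mineralocorticoid receptor, had 890.1 ± 149 CPM against 15.4 CPM in thyroid. The subunits SCNN1A, SCNN1B and SCNN1G of the aldosterone-regulated sodium channel had 79.1 ± 19.7, 112 ± 19.5 and 126 ± 17.1 CPM, and for each of them thyroid had a higher mean, 1405 CPM for SCNN1B. AVPR2, the vasopressin receptor that acts on AQP2, had 7.91 ± 2.07 CPM and was called higher (log2 4.63 ± 0.13).

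The basolateral water channels of principal cells stood apart from AQP2. AQP3 had a lowest, median and highest level of 0.465, 1.26 and 2.52 CPM over the 24 kidneys, was at 366 CPM in skin, and was not called (log2 0.56 ± 0.18). AQP4 had 0.0633, 0.341 and 1.05 CPM and was called lower in kidney (log2 -5.49 ± 0.48), with 990.3 CPM in hypothalamus. No kidney exceeded 2.52 CPM of AQP3, whereas the lowest AQP2 level in any kidney was 901 CPM. Read assignment to both genes in kidney was not tested.

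Intercalated cell genes were called higher for 12 of 13 tested, with 9 kidney-enriched and a median log2 of 7.48. Subunits of the acid-secreting proton pump that are confined mostly to such cells were ATP6V1B1 (569 ± 157 CPM), ATP6V0A4 (687 ± 104 CPM), ATP6V0D2 (186 ± 31.4 CPM) and ATP6V1G3 (162 ± 26.5 CPM). The anion exchangers SLC4A9 and SLC26A4, pendrin, of bicarbonate-secreting cells had 229 ± 74.4 and 153 ± 56.4 CPM. SLC4A1, the exchanger of acid-secreting cells and red cells, had 24.7 ± 8.38 CPM, and FOXI1, the transcription factor of intercalated cells, 13.9 ± 2.93 CPM. Kidneys had at least 136 CPM of ATP6V0D2, and a skin library reached 137 CPM.

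Of the ammonia carriers, RHCG had 203 ± 34.3 CPM in kidney and 37.8 CPM in thyroid and was kidney-enriched. RHBG, the basolateral relative, had 0.655 ± 0.495 CPM in kidney, 53.7 CPM in skin and was called lower (log2 -2.42 ± 0.23). Of 9 tested ammonia genes 6 were higher, 1 lower and 2 not called. GLUD1, which releases ammonia from glutamate, was not called, with a log2 difference of 1.04 ± 0.04. SLC38A3, the glutamine carrier induced in acidosis in rodents, had 115 ± 85.7 CPM and hypothalamus 101 CPM.

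The osmolyte and urea genes of the medulla were called higher for 4 of 8 tested, with 1 kidney-enriched and a median log2 of 1.89. SLC14A2, the urea transporter of the inner medullary collecting duct, was the enriched gene, and its lowest, median and highest kidney levels were 0.752, 17.9 and 229 CPM. SLC5A3, which takes up inositol, had 153 ± 81.4 CPM in kidney and 199 CPM in testis. AKR1B1, aldose reductase, which makes sorbitol, had 158, 258 and 2160.3 CPM and was not called (log2 1.45 ± 0.10), with 673 CPM in heart. SLC6A6, CRYAB and HSPA2 were not called either, with log2 differences of 0.28, 0.64 and -1.40.

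Among renal hormones and the angiotensin system, 9 of 11 tested genes were higher and 3 kidney-enriched. MME, which breaks down angiotensins, had 752 ± 220.3 CPM, and ENPEP, a further angiotensin-cutting peptidase, had 583 ± 156 CPM and was kidney-enriched. ACE and AGTR1 were not called, with higher means in testis (105 CPM) and adrenal (551 CPM). EPO, erythropoietin, was low, with 0.508 ± 0.445 CPM in kidney and 0.897 CPM in cerebellum, although the fit called it higher against the mean of tissues (log2 2.22 ± 0.20).

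Transcription factors of the nephron were called higher for 18 of 19 tested, and 8 were kidney-enriched. HNF4A, which drives proximal tubule genes, had 274 ± 91.1 CPM with at most 5.86 CPM in any other library. TFCP2L1, of the distal tubule, had 414 ± 46.4 CPM, and POU3F3, of the loop, 23.3 ± 6.08 CPM. PAX2 had 30 ± 15.6 CPM with thyroid close by at 26.7 CPM, and PAX8 was higher in thyroid, as given above. HOXD10, a gene of posterior body position, had 39.3 ± 6.97 CPM and was enriched, and OSR2 was not called, with 9.56 CPM in kidney and 153 CPM in testis.

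Genes of the cilium and of cystic kidney disease split into both kinds. Of 12 tested, 4 were higher, among them UMOD, PKHD1 and BICC1, and all 4 were kidney-enriched. PKD1, the main gene of dominant polycystic kidney disease, had 68.5 ± 12.5 CPM in kidney and 439 CPM in cerebellum (log2 -1.46 ± 0.06), and PKD2, its partner, had 162 ± 42.4 CPM (log2 1.65 ± 0.06). Neither was called, nor were the cilium genes NPHP4, INVS, IFT88 and CYS1. Of 16 peroxisomal genes 10 were higher and 6 kidney-enriched, among them AGXT (132 ± 68.2 CPM), which clears glyoxylate, and EHHADH (676 ± 208 CPM) of fatty acid breakdown. CAT, catalase, had 973 ± 246 CPM in kidney and 319 CPM in adrenal. HAO1, glycolate oxidase, a liver enzyme in mouse, was close to absent from the kidney, with 0.315 ± 0.17 CPM.

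The 10 genes with the largest share of kidney counts took 15.0% of them, a share that also depends on gene length. MTRNR2L4 took 9.86%. Its row has near-identical copies in mitochondrial ribosomal RNA and in other genes, so the value is uncertain, and heart was higher (485784 CPM against 101383 ± 29243 CPM). UMOD took 2.17% and GPX3, the glutathione peroxidase that the kidney secretes into plasma, 0.409%. CALB1, SLC34A1, ATP1B1, BAAT and AQP1 followed with 0.269% to 0.362% each. ATP1B1, the beta subunit of the sodium pump, was at 2906 ± 328 CPM in kidney and 1189 ± 207 CPM in thyroid. GPX3 ranged from 773 to 9454 CPM in kidney and reached 1515 CPM in a heart library.

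Genes called lower with the largest differences, and with at least 10 CPM over the other tissues, had few or no kidney reads. PPP1R17, a phosphatase inhibitor of Purkinje cells, had 0 reads in all 24 kidneys, and against a floor of 3 reads over the group it was at least 1880-fold lower than the mean of tissue means. CBLN1, a synapse organiser of cerebellar granule cells, had 1 read in all kidneys and 2352 CPM in cerebellum. INSM1, a transcription factor of endocrine and nerve cells, also had 1 read, with 131 CPM in pituitary. ARHGAP36, highest in pituitary (2434 CPM), CPLX2, complexin of synapses (1245 CPM in cerebellum), and LY6H, a modulator of nicotinic receptors (804 CPM in thyroid), had kidney means of 0.0118, 0.032 and 0.145 CPM. ITGBL1, an integrin-like protein, had 0.0299 CPM in kidney and 39.6 CPM in pituitary. ITGBL1, INSM1 and PPP1R17 were among the 26 kidney-depleted genes.

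Markers of cells from outside the nephron were examined in the kidneys. Of 7 tested adrenal cortex genes none was called higher and 3 were lower, and their summed level had a median of 3.73 CPM but ranged from 2.45 to 212 CPM. The kidneys of NF_0525 and BF_1816 held the highest sums, and the other 22 had at most 30.1 CPM. CYP17A1, of steroid synthesis, was at 95.6 and 96.1 CPM in these 2, and CYP11B1, of cortisol synthesis, was at 0 in all 24 kidneys. By class the sums ran from 2.48 to 185 CPM in BF, 2.48 to 212 in NF, 2.52 to 5.12 in BM and 2.45 to 4.24 in NM. Skeletal muscle genes had sums of 2.53 to 7.92 CPM, and adrenal medulla genes of 4.65 to 58 CPM.

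Adipocyte genes had sums of 8.16 to 239 CPM with a median of 37.4 CPM, highest in BM_1215, BF_6841 and NF_4060. ADIPOQ, adiponectin, ranged from 0 to 86.6 CPM in kidney. Although ADIPOQ, LEP and CIDEC were called higher against the mean of tissue means, ADIPOQ was at 703 CPM in skin. Urothelial genes, of the lining of pelvis and ureter, gave sums of 46.1 to 136 CPM, highest in NM_0713, and UPK1A, a uroplakin, ranged from 1.39 to 39.8 CPM and was kidney-enriched. The hepatocyte list held APOB (469 ± 146 CPM), FGB (199 ± 83.4 CPM) and APOC3 (182 ± 75.2 CPM), all kidney-enriched among the tissues compared, while ALB had a median of 0.0943 CPM and TTR and SERPINA1 means of 0.182 and 0.333 CPM. Liver is not analysed here. Blood and immune genes gave sums of 102 to 945 CPM, of which HBB, beta globin, made up most, and endothelial and stromal genes 1065 to 1624 CPM. Their part in the results was not tested.

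Kidneys differed among themselves in some of these genes. Over 9794 genes with at least 10 CPM in kidney the median SD of log2 CPM between the 24 kidneys was 0.203, and over the 321 kidney-enriched genes among them it was 0.488. An SD above 1 was seen for 42 genes. The 5 largest were those of KIF4A, ADIPOQ, AKR1D1, SLC14A2 and CYP27B1, at 3.42, 2.97, 2.09, 2.09 and 2.06. AKR1D1, a reductase of bile acid and steroid metabolism, ranged from 1.35 to 266 CPM. It was not called within kidney between the sexes, between statuses or in their interaction.

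AKR1B1 and the urea transporters SLC14A2 and SLC14A1 were highest in the same 3 animals. AKR1B1 was at 2160.0 CPM in BF_4772, 1346 CPM in BM_1215 and 1117 CPM in NM_0713, whereas the other 21 kidneys had 158 to 501 CPM. SLC14A2 was also highest in these 3 kidneys, at 161, 136 and 229 CPM. SLC14A1, the urea transporter of red cells and descending vasa recta, was highest in the same 3, at 75.2, 27.4 and 27.2 CPM, with a median over all kidneys of 2.52 CPM. The other genes of the medullary list did not follow throughout. The summed level of the whole list, AKR1B1 and SLC14A2 included, was 4936 CPM in BF_4772 and 4677 CPM in BM_1215, the highest of the kidneys. It was 3444 CPM in NM_0713, close to the median of 3317 CPM. AKR1B1 alone made up 2160 CPM of the sum in BF_4772, so the sum does not show the other members to be high there. In BF_4772 LRP2 was at its lowest (486 CPM), as were SLC34A1 (699.6 CPM) and GPX3 (773 CPM), and AQP2 at its highest (4727 CPM). In NM_0713 UMOD was at its lowest (11088 CPM), but SLC34A1 was the second highest (5260.0 CPM). How much cortex and medulla each sample held was not given in the sources used here, and was not tested.

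**Figure D5:**
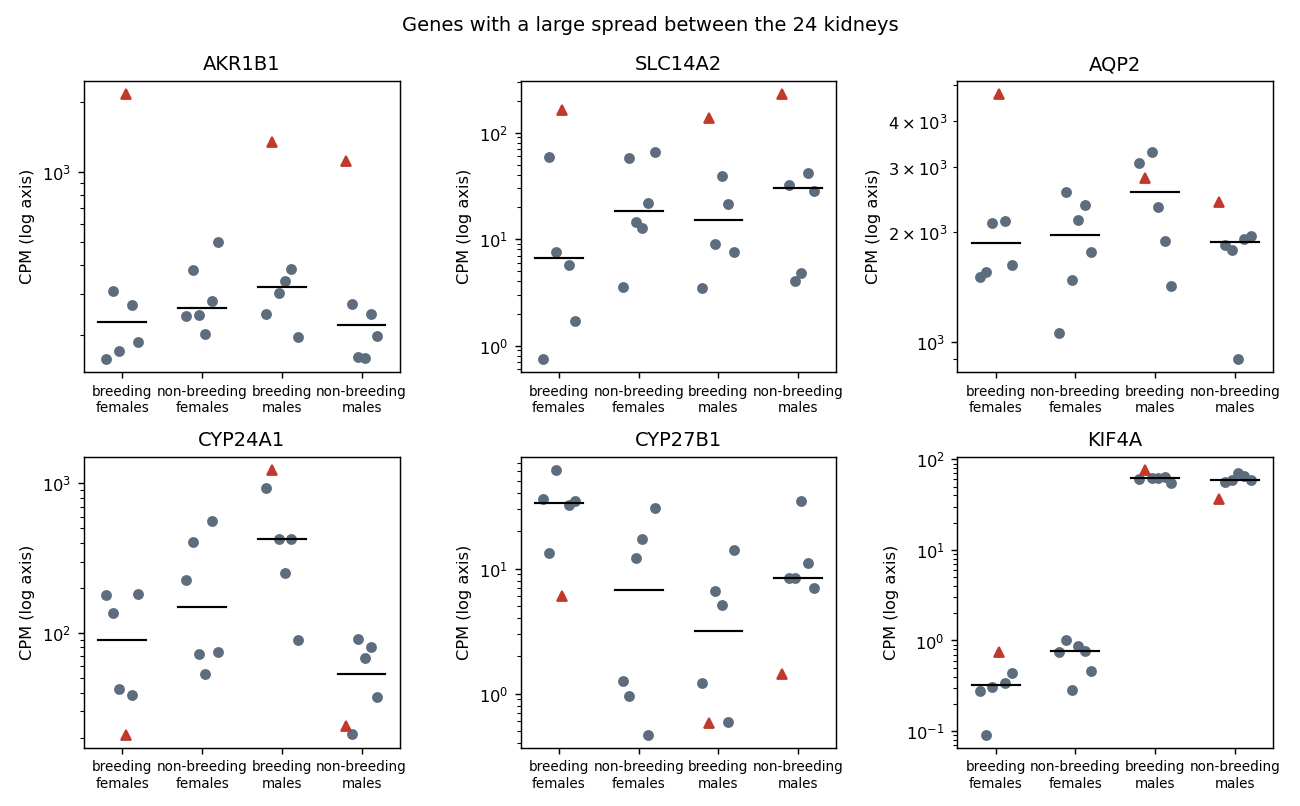
CPM on a log axis of 6 genes in the 24 kidneys by class, with a point for each animal and a line at the class median. Triangles mark BF_4772, BM_1215 and NM_0713, which have the 3 highest levels of AKR1B1 and SLC14A2, and KIF4A separates females (0.0916 to 1.02 CPM) from males (36.1 to 76.4 CPM).

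Levels of 8 nephron genes, among them SLC34A1, UMOD, SLC12A1, SLC12A3, AQP2, ATP6V0D2 and AKR1B1, were compared pairwise over the 24 kidneys on log2 CPM, with two-sided permutation tests and Benjamini-Hochberg adjustment over 28 pairs. Pearson's r had an adjusted p below 0.05 for 9 pairs, 5 positive and 4 negative, and Spearman's rho for 4. UMOD and SLC12A1, of the same segment, had r = 0.708 (permutation p = 0.00014, adjusted 0.00378) and rho = 0.642 (permutation p = 0.00103). Without the 2 libraries farthest from the median of UMOD r was 0.709, on deviations from the 4 class means 0.62, and without BF_4772 and NM_0713 0.739. SLC12A3 and ATP6V0D2 had r = 0.658 (permutation p = 0.00056, adjusted 0.00523) and rho = 0.705 (permutation p = 0.00024), and without the 2 farthest libraries r = 0.687. Without BF_4772 and NM_0713 r was 0.546 (permutation test, adjusted p = 0.0685), which missed the threshold. UMOD and AQP2 had r = -0.00178 (permutation p = 0.994).

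Of the 9 pairs, 3 were those of AKR1B1 with SLC34A1, SLC12A3 and AQP2, and they rest partly on the 3 kidneys above 1000 CPM of AKR1B1, which stood apart. Over the other 21 kidneys 2 of these pairs missed the threshold. There r was -0.616 with SLC34A1 (permutation p = 0.00273, adjusted over 7 pairs 0.0191, rho -0.548, permutation p = 0.011), -0.33 with SLC12A3 (permutation p = 0.145, adjusted 0.254) and 0.38 with AQP2 (permutation p = 0.0881, adjusted 0.206). In other subsets the pair with SLC34A1 was weaker. Without BF_4772 and BF_1090, the 2 kidneys farthest from the median of SLC34A1, r was -0.0548. Without BF_4772 and NM_0713 r was -0.466 (permutation test, adjusted over 28 pairs p = 0.1075), which missed the threshold. The count of 9 pairs fell to 3 without BF_4772 and NM_0713. Leaving out a kidney at a time gave 4 to 10 pairs, and 4 or 5 without any of NF_0525, BF_1090, BM_1147, NF_2411, NM_3295, NF_3439, NF_4060, BF_4772 and BF_6841. All pairs share the same libraries.

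Vitamin D genes also varied widely. CYP24A1 had lowest, median and highest levels of 21, 89.5 and 183 CPM in BF, 53.6, 150.2 and 559 in NF, 90, 423 and 1229 in BM and 21.1, 52.9 and 90.5 in NM. CYP27B1, which activates vitamin D in the proximal tubule, had 6.03, 33.5 and 61.6 CPM in BF, 0.472, 6.7 and 30.4 in NF, 0.585, 3.16 and 14.2 in BM and 1.43, 8.4 and 34.6 in NM. Male breeders thus held the highest median of CYP24A1 and the lowest of CYP27B1, with overlap between classes. The pair was chosen for a comparison after its values were seen, and over 24 kidneys it had r = -0.573 (two-sided permutation p = 0.00404) and rho = -0.496 (permutation p = 0.0146). Without the 2 libraries farthest from the median of CYP27B1 r was -0.433, and on deviations from class means -0.444. In the test of whether the breeding effect differed between the sexes, CYP24A1 had a log2 difference of -4.59 ± 0.95 (females minus males), with an adjusted p of 0.594 in edgeR and 0.00288 in DESeq2.

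Within kidney, females and males, breeders and non-breeders, and the interaction of both were compared over 13635 genes in a fit of the 24 kidneys, with an adjusted p below 0.01. Between females and males 7 genes were called, 6 lower in females (0.044%) and 1 higher (0.00733%). KIF4A, a motor of the mitotic spindle, ranged from 0.0916 to 1.02 CPM in 12 females and from 36.1 to 76.4 CPM in 12 males (log2 -6.89 ± 0.17). EIF2S3, a translation initiation factor, RAB9A, of endosome transport, OFD1, a centriole protein, TCEANC, and TRAPPC2, of vesicle traffic, were lower in females by log2 values from -1.11 to -0.88. For these 6 genes the highest female lay below the lowest male, a separation that their choice by the sex test favours. The share of all 13635 genes separated in this way was not counted. DESeq2 called 20 genes between the sexes, limma-voom 7, and edgeR 11 without NM_6074. ZRSR2, a splicing factor, was higher in females (log2 0.52 ± 0.07), with 11.7 to 17.8 CPM against 8.32 to 11.2 CPM. All 7 are on the X chromosome in human, and their position in naked mole-rat was not looked up. OFD1, TRAPPC2, RAB9A and TCEANC are neighbours in human, and reads of overlapping genes cannot be told apart without strand.

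None of the 357 kidney-enriched genes was called by edgeR between the sexes, between statuses or in the interaction. At an unadjusted p below 0.05 there were 32 between females and males (8.96%, against 14.6% of all genes), 26 between breeders and non-breeders (7.28%, against 5.32%) and 24 in the interaction (6.72%, against 6.16%). Over all genes, breeders and non-breeders gave 0 calls in edgeR (0%, 725 at an unadjusted p below 0.05), 0 in limma-voom and 2 in DESeq2. That contrast averaged over the sexes, whereas the study tested status in each sex alone, which was not done here. The interaction gave 0 calls in edgeR (840 at an unadjusted p below 0.05), 0 in limma-voom and 1 in DESeq2, the kidney-enriched gene CYP24A1. The 2 genes called by DESeq2 between statuses were COL1A1 and COL3A1, the main fibrillar collagens, both lower in breeders. COL1A1 ranged from 15.5 to 50.5 CPM in breeders and from 28.9 to 79.5 CPM in non-breeders (edgeR log2 -0.94 ± 0.17, adjusted p = 0.135), and COL3A1 from 56 to 152 and 67.6 to 187 CPM. Without BF_4121 edgeR called both.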

How the data were processed

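RNA from 10 tissues was sequenced by the study, and 215 libraries from 24 animals are in the table used here. The authors mapped reads with STAR (2.4.1d in the submitters' processing notes) and counted them per gene with HTSeq. They discarded reads that mapped to several places, so near-identical copies lose reads. The deposited values are raw counts for 16339 gene symbols, of which 61 had no reads. From these counts 24 kidney and 189 other libraries were fitted here with edgeR 4.0.16 (R 4.3.3), using TMM scaling, its default filter on low counts (15641 genes kept), robust quasi-likelihood tests, tissue as the only factor and Benjamini-Hochberg adjustment. Kidney was contrasted with the mean of 9 tissue means and with each tissue. Because the same animals gave several tissues, libraries of an animal are not independent, and the fit with animal as a block was run as an alternative. A kidney-only fit (4 classes of 6, 13635 genes) tested sex, status and their interaction, with limma 3.58.1 (voom) and DESeq2 1.42.0 as alternatives. CPM values use the TMM-scaled library size, and permutations of correlations numbered 100000 (20000 where a kidney was left out). Library totals were 9553515 to 20099804 counts over all tissues, and for genes without reads a floor of 3 reads over the 24 kidneys was set. The fits were tested on simulated counts with independent libraries and the same dispersion for every gene, a setting simpler than these data. Other alternatives were other scalings, no filter, glmTreat, no threshold on the fold, leaving out a tissue, an animal, 4 thyroid and pituitary libraries or the MTRNR2L4 row, and each class alone. Named were UMOD, AQP2 and SLC12A1, the 20 kidney-enriched genes with the largest difference and 8 genes called lower (each with at least 10 CPM), the 10 largest shares of counts, list members by level or as defining genes, the 5 most variable genes and those called within kidney. Others, among them SLC14A1, CYP24A1 by class, COL1A1, COL3A1 and PHYH, were chosen after their values were seen. The members and lists were chosen with earlier results of these data known. Liver and guinea pig samples were not analysed here, and some genes of the lists, though counted, are not reported here by name.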

Additional observations from a re-analysis of the deposited data

Results flagged for a closer look

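In 8 of 44 sets of class values, 11 genes in 4 classes of 6 kidneys, a kidney lay farther from its nearest neighbour than Dixon's 95% limit for 6 samples. Chance gives about 1 in 20, but SLC14A2 and CYP27B1, with 4 of the 8, were among the genes named for their large spread between kidneys, so the count is a description and not a test. AKR1B1 was at 2160.0 CPM in BF_4772 against 158 to 308 CPM in the other 5 female breeders, at 1346 CPM in BM_1215 against 197 to 385 CPM, and at 1117 CPM in NM_0713 against 159 to 271 CPM. SLC14A2 was at 161 CPM in BF_4772 (others 0.752 to 58.5), 136 CPM in BM_1215 (3.48 to 39.1) and 229 CPM in NM_0713 (4.03 to 41.8). AQP2 was at 4727 CPM in BF_4772, with 1501 to 2135 CPM in the other female breeders. The kidney with a high CYP27B1 was NM_4925, at 34.6 CPM against 1.43 to 11.1 CPM.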

How the results depend on the processing

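No difference or correlation that was called, in the main setting or in the alternative, changed direction. Changes of sign among values called in neither were not counted. Such a change was that of UMOD and AQP2, with r = -0.00178 in the main setting and 0.0171 on deviations from the class means. The test against a log2 difference of 1 (glmTreat) gave 2125 genes higher, 1823 lower and 41 depleted. Without a threshold on the fold there were 5871 genes higher, 6590 lower, 1042 enriched and 448 depleted, which follows from dropping that criterion. Kidney-depleted genes numbered 40 without skin and 42 without thyroid, as fewer comparisons had to be passed, and 11 with class BF alone and 9 with NF alone. Within kidney, DESeq2 called 20 genes between the sexes, 2 between statuses and 1 in the interaction, and the cause was not tested. Pairs of segment genes numbered 3 without BF_4772 and NM_0713. Leaving out an animal at a time gave 1250 to 1279 genes higher, 1085 to 1125 lower, 353 to 364 enriched, 23 to 27 depleted, 7 to 11 between the sexes (11 without NM_6074), 0 to 2 between statuses (2 without BF_4121), 0 in the interaction and 4 to 10 pairs of segment genes. With animal as a replicate block, since tissues of an animal are paired, there were 1275 genes higher, 1093 lower, 359 enriched and 26 depleted, with 2 enriched genes lost and 4 gained. Within kidney no paired analysis was possible because the labels name no litter or mated pair. Over 317 results for single genes or for single pairs of segment genes, 13600 values kept their call, 101 lost it and 80 gained it. For PPP1R17, with 0 reads in kidney, depth allows only a bound on the difference.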

Other observations

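PHYH, which breaks down phytanic acid in peroxisomes, varied most among female breeders and was chosen after its values were seen. Its lowest, median and highest levels were 17.8, 122 and 370.5 CPM in BF, 6.83, 11.4 and 39.4 in NF, 6.06, 13.9 and 21.2 in BM and 6.9, 9.04 and 18.8 in NM. The log2 difference of females minus males in kidney was 2.11 ± 0.42, with an adjusted p of 0.0489 in edgeR, which missed the threshold of 0.01, and 0.000506 in DESeq2. This contrast pools breeders and non-breeders, and by median only BF stood apart, with NF close to the males. PHYH was not called between statuses or in the interaction by edgeR or DESeq2. For 29 of the 357 kidney-enriched genes the highest library outside kidney was the heart of NF_4060, where APOC3 was at 11.8 CPM, and ALB, which was not enriched, at 688 CPM. The heart of NM_3295 was that library for 9 genes, with 15.6 CPM of SLC34A1 against 699.6 CPM in the lowest kidney.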
